A study of Rattus norvegicus with 7 samples.

Results

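The 5 IgG RIP arrays of the series were compared with each other, 3 arrays whose names begin with IgG3 (IgG3, IgG3_0 and IgG3_1x) against the 2 arrays named IgG1 and IgG2, out of 7 arrays in all. They were chosen by array name alone. All 5 hybridised RNA that came down with rabbit IgG on protein A beads from lysates of cortical neurons. The neurons were taken from Sprague-Dawley rat embryos at day 18 of gestation and cultured for 9 days. No treatment, genotype or time separated the arrays in the labels, which give them replicate numbers 3, 4 and 5 (IgG3, IgG3_0 and IgG3_1x) and 1 and 2 (IgG1 and IgG2). The labels say neither what _0 and _1x stand for nor whether the 3 arrays had their own cultures, so p-values below measure only the spread between these arrays, which may be technical. The 2 arrays of the TRF2-S antibody were not used.

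In RNA immunoprecipitation an antibody against a binding protein is set against IgG from unimmunised animals, which has no target in the lysate. The RNA that the IgG beads bring down is background, made up of transcripts that stick to beads, tubes or antibody together with whatever was left after washing. The control therefore sets what counts as enrichment, and a transcript that is low in one control and high in another takes a different enrichment against each. Which transcripts differed between the controls named IgG3 and those named IgG1 and IgG2 is described here for genes of the neuron's surface, its RNA machinery, its ribosomes and its mitochondria.

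The IgG3-named arrays were brighter. Mean intensity was 608 on IgG3, 298 on IgG3_0 and 527 on IgG3_1x, against 163 on IgG1 and 201 on IgG2. The log2 intensities were also more widely spread, with an SD of 1.61, 1.16 and 1.56 on the IgG3-named arrays, against 0.995 on IgG1 and 1.10 on IgG2, so that IgG3_0 lay between the other arrays of its name and the pair IgG1 and IgG2. The number of probes above background (detection p under 0.02) overlapped, with 7097 to 8293 on the IgG3-named arrays and 7602 and 8003 on IgG1 and IgG2. Each array was put on a common scale by its Z-score, in log2 units, and a difference below is always the IgG3-named arrays minus IgG1 and IgG2. Over 2889 bright probes the SD of the difference between IgG3 and IgG3_1x was 0.0843, against 0.414 and 0.468 for IgG3_0 with these arrays, 0.266 for IgG1 with IgG2 and 0.677 to 0.843 for pairs across the names. IgG3 and IgG3_1x thus lay closer to each other than any other pair, and counts are also given with both averaged into 1 value. The part of brightness and spread in the results was not tested. More RNA per cell, more cells and more RNA left on the beads cannot be told apart on these arrays.

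Of 8782 probes above background on at least 2 of the 5 arrays, 2533 were higher (28.8%) and 1503 lower (17.1%) on the IgG3-named arrays (limma, Benjamini-Hochberg adjusted p under 0.05). With IgG3 and IgG3_1x averaged, 1618 were higher and 1127 lower. Over the 6328 named genes tested, each by its brightest probe, 1884 were higher (29.8%) and 1023 lower (16.2%), and the median difference was 0.15. Of these, 1700 higher and 846 lower genes stood on the same side of the median of all genes in each of 7 scalings of the arrays. The split between higher and lower depended on the scaling. After cyclic loess, which sets probes against others of like brightness, 2201 probes were higher and 2634 lower, and with Z-scores set on the probes detected on all 5 arrays 1692 were higher and 2463 lower. Unscaled intensities gave 5506 higher and 77 lower probes. Centring on the median alone gave 0 higher and 28 lower probes, with 2966 at an unadjusted p under 0.05 in limma. Single arrays also moved the counts, to 977 higher and 613 lower without IgG1, 1163 and 590 without IgG2, 4102 and 2072 without IgG3_0, and 1547 and 1070 without IgG3_1x. Genes that rose or fell below were called by the Z-score fit against no difference, and gene differences and list medians are on that scale too. Positions of lists were taken relative to all genes and compared over the 7 scalings. Median centring and no scaling give the same positions.

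**Figure D1:**
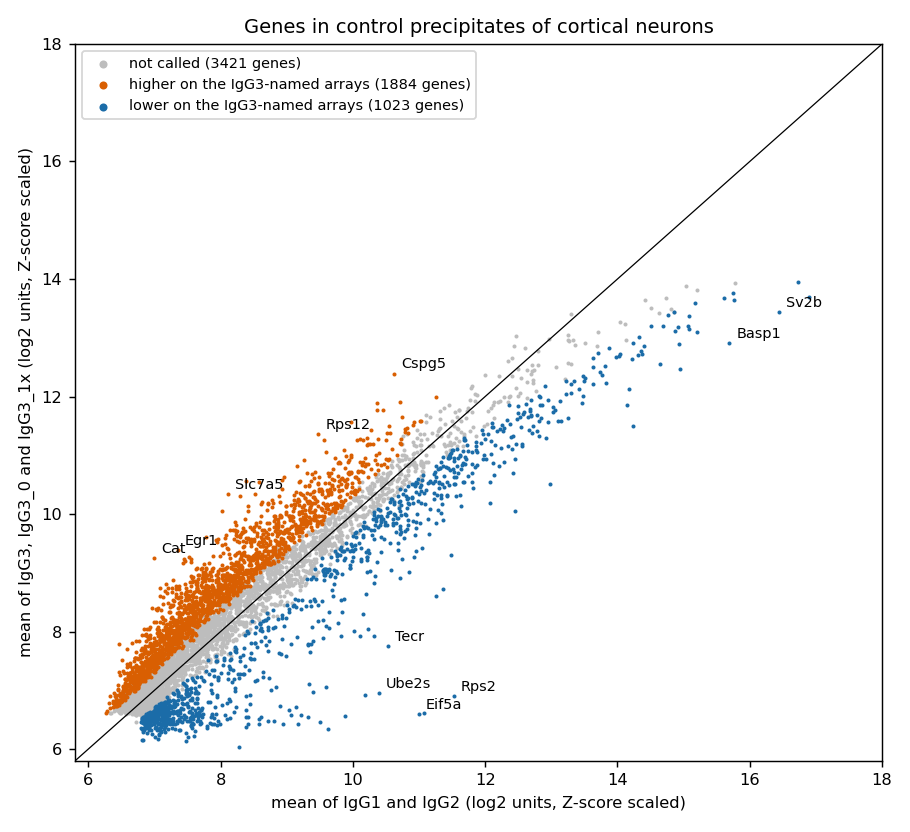
Each point is a named gene, with the mean of IgG3, IgG3_0 and IgG3_1x on the vertical axis against the mean of IgG1 and IgG2 on the horizontal axis, both in log2 units after Z-score scaling; the line marks equal values. Higher genes (1884, orange) lie above the line at low and middle brightness, lower genes (1023, blue) lie in a row near background on the IgG3-named arrays and below the line among the brightest genes.

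The clearest difference was a set of transcripts that were well above background on IgG1 and IgG2 and close to it on every IgG3-named array. Rps2, a protein of the small ribosomal subunit, had intensities of 161, 128 and 144 on IgG3, IgG3_0 and IgG3_1x, against 1082 on IgG1 and 1397 on IgG2. Its scaled value averaged 6.90 ± 0.0074 on the IgG3-named arrays and 11.52 ± 0.12 on IgG1 and IgG2 (SD, n = 3 and n = 2), a difference of -4.63 (SE 0.10, limma adjusted p = 8.97e-06). The groups lay far apart although the IgG3-named arrays were the brighter ones. Ube2s, which extends ubiquitin chains for the anaphase-promoting complex, had intensities of 176, 126 and 154 on the IgG3-named arrays against 557 on IgG1 and 757 on IgG2 (difference -3.44). Snurf, a small protein encoded on the imprinted Snrpn transcript, followed with 175, 125 and 148 against 516 on IgG1 and 642 on IgG2 (difference -3.26). Rpl13a, of the large ribosomal subunit, had 196, 129 and 177 on the IgG3-named arrays, against 365 on IgG1 and 470 on IgG2 (difference -2.54). All 4 fell on the deposited intensities too, without any scaling.

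Another 544 probes were detected on IgG1 and IgG2 and on no IgG3-named array, and 6165 were detected on all 5 arrays. Since the 544 entered the test only through IgG1 and IgG2, their direction was set by that pattern and they are given as a description. For such genes only a bound can be given, taking each IgG3-named array at its dimmest detected probe, or at the gene's own reading where that was higher, and setting IgG1 and IgG2 over it. These bounds are on the Z-score scale, where each array was divided by its own spread, and are not ratios of the printed intensities. Eif5a, the translation factor that carries hypusine, was not above background on the IgG3-named arrays (intensities 122.6, 109 and 111) and read 885 on IgG1 and 933 on IgG2, at least 19.7-fold lower on the IgG3-named arrays. Akr1c12, an aldo-keto reductase, read 120, 115 and 110 on the IgG3-named arrays against 555 on IgG1 and 1714 on IgG2, which were themselves apart. It was at least 20.7-fold lower by Z-score, and its log2 difference without scaling was -3.09. Ptms (parathymosin, an acidic nuclear protein) was at least 9.11-fold lower, Traf4 (a TNF receptor associated factor) at least 7.56-fold, Fam110d at least 6.95-fold and Ly6h (a lipid-anchored surface protein) at least 6.19-fold. The fit gave these 6 limma adjusted p between 2e-05 and 0.000279, which is no independent support, since the genes were chosen for this difference.

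The opposite set was smaller and its bounds, also on the Z-score scale, were low. It held 307 probes detected on all 3 IgG3-named arrays and on neither IgG1 nor IgG2, whose direction was likewise set by the pattern. Btd (biotinidase) read 427, 197 and 344 on the IgG3-named arrays against 78.5 on IgG1 and 84.1 on IgG2, at least 2.09-fold higher. Vldlr, a receptor for reelin and lipoproteins, was at least 2.04-fold higher, Frs3, an adaptor of growth factor receptors, at least 2.01-fold, and Tshr, the thyrotropin receptor, at least 1.91-fold. Gsn (gelsolin, which severs actin filaments) and Zfpm2 (a cofactor of GATA factors) were each at least 1.71-fold higher. Gsn lost its call without IgG1 or IgG2 and Zfpm2 without IgG2.

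Next came the 12 genes with the largest gain among those measured in both groups. Slc7a5, the carrier of large neutral amino acids, had intensities of 3244, 1068 and 2656 on IgG3, IgG3_0 and IgG3_1x, against 162 on IgG1 and 196 on IgG2. Its scaled value was 10.34 ± 0.040 on the IgG3-named arrays and 8.11 ± 0.038 on IgG1 and IgG2, a difference of 2.23 (SE 0.096, limma adjusted p = 3.4e-05). That the groups did not overlap was a condition of the choice, and it held for all 1884 higher and 1023 lower genes. Cat (catalase, which breaks down hydrogen peroxide) rose most, with a difference of 2.26, and read 1486, 464 and 1126 on the IgG3-named arrays against 101 on IgG1 and 88.2 on IgG2. Fst (follistatin, a secreted binder of activin) rose by 2.17, with 3904, 1279 and 3069 on the IgG3-named arrays against 174 on IgG1 and 255 on IgG2. Serinc1, a membrane protein with many spans, rose by 2.03, Atp6v0a1, the membrane subunit of the proton pump of vesicles, by 2.01, and Atp2c1, the calcium and manganese pump of the Golgi, by 1.97. Pcdh19 (a protocadherin) rose by 1.82, Rnf139 (a ubiquitin ligase of the ER membrane) by 1.79 and Cspg5 (a membrane proteoglycan of brain) by 1.77. Egr1 (an immediate early transcription factor) rose by 2.03, Rps12 (a protein of the small ribosomal subunit) by 1.89 and Kmt2e (a chromatin protein) by 1.82.

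**Figure D2:**
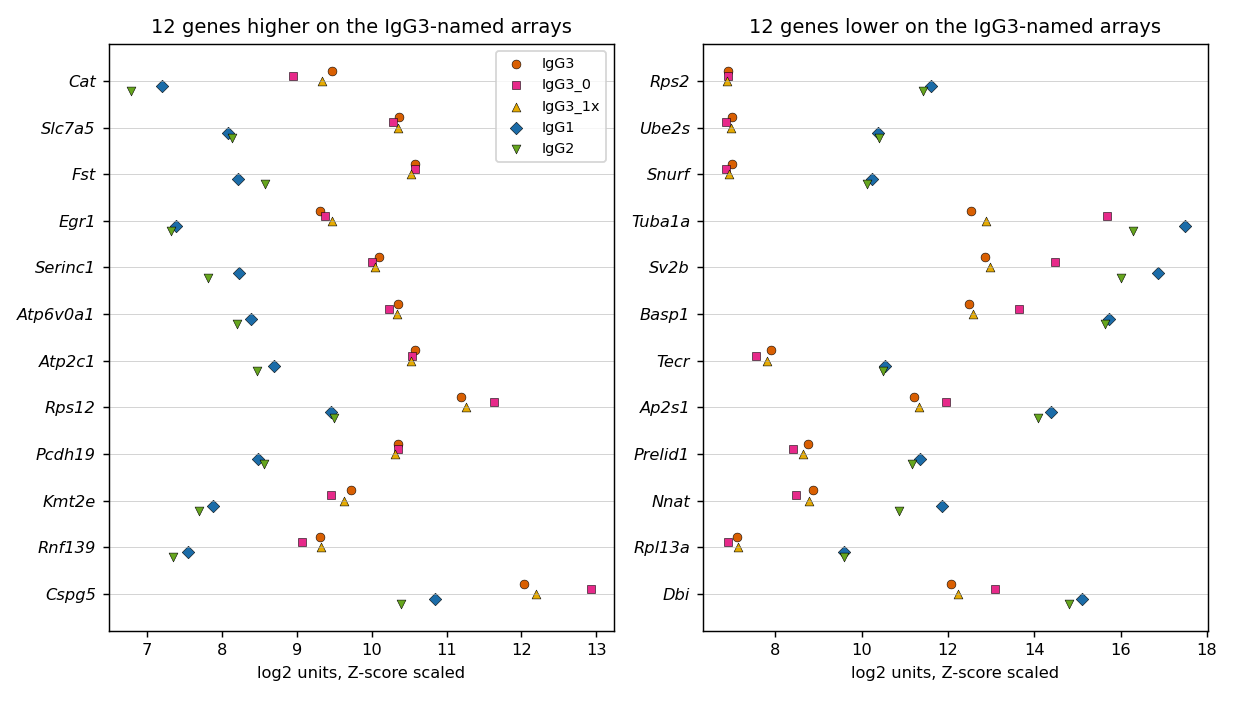
Scaled values (log2 units) of the 12 genes with the largest gain (left) and the largest loss (right) among those measured in both groups, with a point for each of IgG3, IgG3_0, IgG3_1x, IgG1 and IgG2. By the rule of choice, no gene overlaps between the names. For Rps2, Ube2s and Snurf the IgG3-named points coincide near 6.9, while for Tuba1a and Sv2b IgG3_0 lies toward IgG1 and IgG2.

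The remaining genes with large losses were of 2 kinds. Tecr (fatty acid elongation), Prelid1 (lipid transfer in mitochondria) and Nnat (neuronatin, an imprinted membrane protein of brain) were moderately bright on all arrays. Tecr read 384, 193 and 312 on the IgG3-named arrays against 613 on IgG1 and 803 on IgG2 (difference -2.77), and the differences of Prelid1 and Nnat were -2.65 and -2.65. Tuba1a (an alpha tubulin), Sv2b (a synaptic vesicle glycoprotein), Basp1 (a growth cone membrane protein), Ap2s1 (the small subunit of the AP-2 clathrin adaptor) and Dbi (the acyl-CoA binding protein) were among the brightest probes. Sv2b read 28404, 14686 and 23962 on the IgG3-named arrays against 18259 on IgG1 and 21196 on IgG2. These intensities overlapped between the names, and the difference was -2.997 once each array had been divided by its own spread. After quantile normalization it was -0.78. Tuba1a likewise read 21369, 31112 and 22226 against 25550 on IgG1 and 25139 on IgG2, and its difference was -3.19 by Z-score and -0.95 by quantiles. Its call was lost without IgG1 and without IgG2.

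Brightness was therefore described before the gene classes. In 5 bins of equal size by mean brightness, the share of genes called higher was 6.24%, 24.3%, 41.2%, 48.1% and 28.9%, and the share called lower 19.7%, 15.0%, 7.11%, 7.98% and 31.0%, dimmest to brightest. Of the 100 brightest genes 0 were called higher and 56 lower. Their median relative to all genes was -1.35 by Z-score, -0.20 by quantiles and 0.25 by median centring, so the direction of bright genes as a group turned with the scaling. By cyclic loess the 5 bins differed from all genes by at most 0.04.

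**Figure D3:**
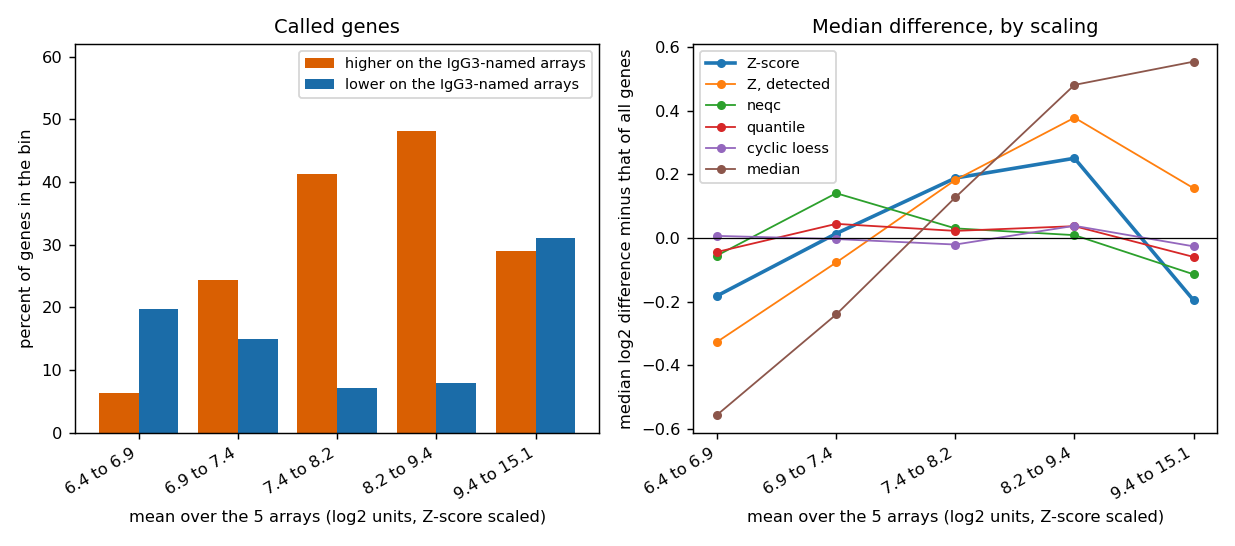
Named genes in 5 bins by mean over the 5 arrays (log2 units, horizontal axes). Left, the percentage called higher (orange) and lower (blue) on the IgG3-named arrays by Z-score, with 48.1% higher in the fourth bin; right, the median log2 difference of each bin minus that of all genes under 6 scalings, which spread from -0.20 to 0.55 in the brightest bin.

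Several lists of surface and excitability genes lay above all genes. Pumps of the P type, which spend ATP to move ions or lipids across membranes, had the largest upward shift of the 54 lists with at least 5 genes tested. Of 10 measured, 7 rose and 0 fell, beside 29.8% and 16.2% of all genes, with a median difference of 1.03. The list lay 0.71, 1.01 and 0.74 above all genes on IgG3, IgG3_0 and IgG3_1x, and 0.84 to 1.31 above over the 7 scalings. Besides Atp2c1, Atp2b3 (a calcium pump of the plasma membrane) read 1872, 605 and 1506 on the IgG3-named arrays against 146 on IgG1 and 210 on IgG2 (difference 1.53). Atp1b2, a beta subunit of the sodium pump, rose by 1.37 and Atp13a2, a lysosomal polyamine pump, by 1.16. All 4 kept their calls without any single array, but IgG3 and IgG3_1x lay so close that leaving 1 out is no test on separate RNA.

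Receptors for glutamate, the main excitatory transmitter, rose in 5 of 8 and fell in 1, with a median of 0.52. Gria2, the AMPA receptor subunit that limits calcium entry, read 4315, 1424 and 3600 on the IgG3-named arrays against 465 on IgG1 and 538 on IgG2 (difference 0.78). Grik1, a kainate receptor subunit, rose by 0.77, and Grik5, of the same family, fell by 1.52, with intensities of 176, 118 and 157 against 208 on IgG1 and 222 on IgG2. Members of the same receptor family thus moved in both directions. Of 5 GABA receptor subunits 3 rose and 1 fell, with a position 0.25 above all genes that was 0.159 without IgG2. Gabbr2 rose by 1.46, while its partner in the GABA-B receptor, Gabbr1, fell by 0.49 by Z-score, a call lost without IgG1 or IgG2. Gabbr1 lay close to background on the IgG3-named arrays (164, 110 and 142, against 103.5 on IgG1 and 124 on IgG2). Without scaling its difference was 0.27, beside a median of 1.16 over all genes. Of 14 sodium and calcium channel genes 6 rose and 4 fell. Over all genes 29.8% were called higher and 16.2% lower. In the brightness bin of the glutamate, GABA and channel list medians (7.42, 8.22 and 7.58) it was 41.2% and 7.11%. Scn2a and Scn1a, which carry the sodium current of action potentials, rose by 1.41 and 1.14, Cacna2d1, an auxiliary calcium channel subunit, by 1.23, and Cacnb1, another auxiliary subunit, fell by 1.03 by Z-score. Cacnb1 read 212, 137 and 187 on the IgG3-named arrays against 173.5 on IgG1 and 197 on IgG2. Its difference without scaling was -0.07.

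Proteins that couple and end receptor signals were split. Of 11 RGS proteins, which speed the shut-off of G proteins, 6 rose and 0 fell, with a median of 0.41 and a position 0.26 above all genes (0.146 without IgG1). Over all genes 29.8% were called higher and 16.2% lower. In the brightness bin of the RGS median (8.36) 48.1% were called higher. Rgs4 rose by 0.65 and Rgs14 by 0.59, and their calls were among those lost without IgG1 (Rgs14 also without IgG2, IgG3 or IgG3_1x). The heterotrimeric G protein subunits themselves went the other way, with 2 higher and 8 lower of 16, a median of -0.41 and a position 0.25 to 0.84 below all genes over the scalings. That position, -0.56 by Z-score, was -0.155 without IgG1, -0.202 without IgG2 and -0.123 over probes detected on all 5 arrays. Gng10, a gamma subunit, read 473, 224 and 394 on the IgG3-named arrays against 496 on IgG1 and 553 on IgG2 (difference -2.01). Gnai2, an inhibitory alpha subunit, fell by 1.29, a call lost without IgG1, and Gnaz, an alpha subunit of the same class, rose by 0.89, a call also lost without IgG1. Synaptic vesicle and release proteins also lay below all genes by 0.21 to 0.48, with 3 higher and 8 lower of 27. Sypl1, Vamp7 and Rab3a, all of vesicle membranes, fell by 0.75, 0.71 and 0.71 by Z-score. Rab3a read 141, 121 and 126 on the IgG3-named arrays against 121 on IgG1 and 126 on IgG2. Vamp7 and Rab3a lay close to background on the IgG3-named arrays. Without scaling, the differences of Sypl1, Vamp7 and Rab3a were 0.15, 0.04 and 0.06, beside a median of 1.16 over all genes. Syp (synaptophysin, a standard vesicle marker) rose by 1.41, with 2859, 992 and 2322 on the IgG3-named arrays against 218 on IgG1 and 317 on IgG2, so vesicle proteins did not move as a block.

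Adhesion and guidance molecules were called higher in larger shares than the 29.8% of all genes. That share itself varied with brightness. It was 41.2% in the bin that held the median brightness of the synaptic adhesion and guidance lists (8.17 and 7.64). In the bin of the cadherins (7.16) it was 24.3%. Of 24 genes on the list of immunoglobulin and synaptic adhesion molecules 14 rose and 2 fell (median 0.43). Of the 2 that fell, 1 was Basp1 (difference -2.78), the growth cone membrane protein named above. Nptn (neuroplastin) read 2499, 980 and 2226 on the IgG3-named arrays against 241 on IgG1 and 281 on IgG2 (difference 1.34), and Lrfn2, Slitrk5 and Lrfn5, leucine-rich repeat proteins of synapses, rose by 1.28, 1.26 and 1.16. Of 27 axon guidance ligands and receptors 13 rose and 4 fell (median 0.36). The list lay 0.20 above all genes, but 0.523 without IgG1, 0.339 without IgG2 and 0.094 without IgG3_0. Ephb1, a receptor of ephrins, rose by 1.62, the semaphorins Sema4g and Sema7a by 1.33 and 1.17, and the netrin receptor Unc5c by 1.16, while the semaphorin receptor Plxnb2, near background on the IgG3-named arrays, fell by 0.69, a call lost without IgG2. Of 20 cadherins and protocadherins 11 rose and 1 fell (median 0.41). Next to Pcdh19, the atypical cadherin Fat4 rose by 1.14, and the list lay 0.26 above all genes by Z-score and 0.11 below them by median centring. Tetraspanins, small scaffolds of membrane domains, were an exception among surface proteins, with 2 higher and 6 lower of 17 and a place 0.13 to 0.47 below all genes over the scalings. Their median relative to all genes, -0.44 by Z-score, was -0.127 without IgG1 and -0.224 without IgG2. Cd63, found in endosomes and exosomes, fell by 0.64.

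Genes of the secretory pathway also lay above all genes. Of 29 genes for translocation into the endoplasmic reticulum and folding there, 16 rose and 5 fell, with a median of 0.42 and a place 0.13 to 0.61 above all genes over the scalings. In the brightness bin of the list's median (9.79) 28.9% of genes were called higher and 31.0% lower. Srpra, which docks ribosomes at the ER, read 1678, 634 and 1478 on the IgG3-named arrays against 152 on IgG1 and 178 on IgG2 (difference 1.61). Rpn2, a subunit of the enzyme that adds sugars, rose by 1.52, Hsp90b1, a chaperone of the ER lumen, by 1.46 and Sec62, of the translocation channel, by 1.43. Of the 5 that fell, Serp2 fell by 0.62 by Z-score but lay 0.22 above all genes by median centring, and lost its call without IgG1.

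Lists of genes that act on RNA were mixed. Of 19 genes of neuronal RNA granules and the FMRP family, whose proteins bind RNA, 10 rose and 1 fell, with a median of 0.50. The list lay 0.16 to 0.54 above all genes over the scalings (0.35 by Z-score and 0.226 without IgG2). Over all genes 29.8% were called higher. In the brightness bin of this list's median (8.63) it was 48.1%, and in that of the nuclear import list (8.09) 41.2%. Khdrbs1 (Sam68, a splicing regulator) read 4218, 1586 and 3536 on the IgG3-named arrays against 379 on IgG1 and 513 on IgG2 (difference 1.06). Nova1 (a neuronal splicing regulator) rose by 0.84, Elavl1 (HuR, which steadies mRNAs) by 0.83 and Pum2 (a translational repressor) by 0.82. Those 3 calls were lost without IgG2. Stau2 (Staufen 2, a carrier of dendritic mRNA) fell by 0.80, a call lost without IgG1 or IgG2. Of 27 nuclear import and pore genes 14 rose and 2 fell (median 0.39), among them the import receptors Kpna1 (1.12) and Ipo9 (0.86) and the pore protein Nup107 (0.88), whose call was lost without IgG1 or IgG2. RNA polymerase and Mediator subunits, which make rather than bind mRNA, counted 5 higher and 10 lower of 37, with Polr2m at -1.48, Med25 at -1.19 and, in the other direction, Polr2b at 0.82, a call lost without IgG1 or IgG2. Splicing proteins (hnRNP, SR and snRNP) counted 15 higher and 7 lower of 40, at 0.02 relative to all genes, and the Lsm proteins of small nuclear RNA 0 higher and 4 lower of 9, at -0.51 by Z-score and 0.12 by median centring.

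Immediate early genes, switched on within minutes of neuronal activity, counted 8 higher and 0 lower of 14. The share of genes called higher was 24.3% in the brightness bin of this list's median (7.27). It was 41.2% in that of the intermediate filament list (7.95). Besides Egr1, Jun rose by 0.88, Klf4 by 0.82 and Junb by 0.80, the last of these losing its call without IgG1 or IgG2. Egr1 read 1292, 605 and 1266 on the IgG3-named arrays against 111 on IgG1 and 121 on IgG2. The list lay 0.22 above all genes by Z-score and 0.01 below them by median centring. Of 9 intermediate filament genes 5 rose and 0 fell, 0.35 above all genes (0.214 without IgG2 and 0.230 without IgG3_0), with Vim (vimentin, of glia and progenitors) at 1.30, Ina (alpha-internexin, of young axons) at 0.82 and Nefm (a neurofilament subunit) at 0.70.

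**Figure D4:**
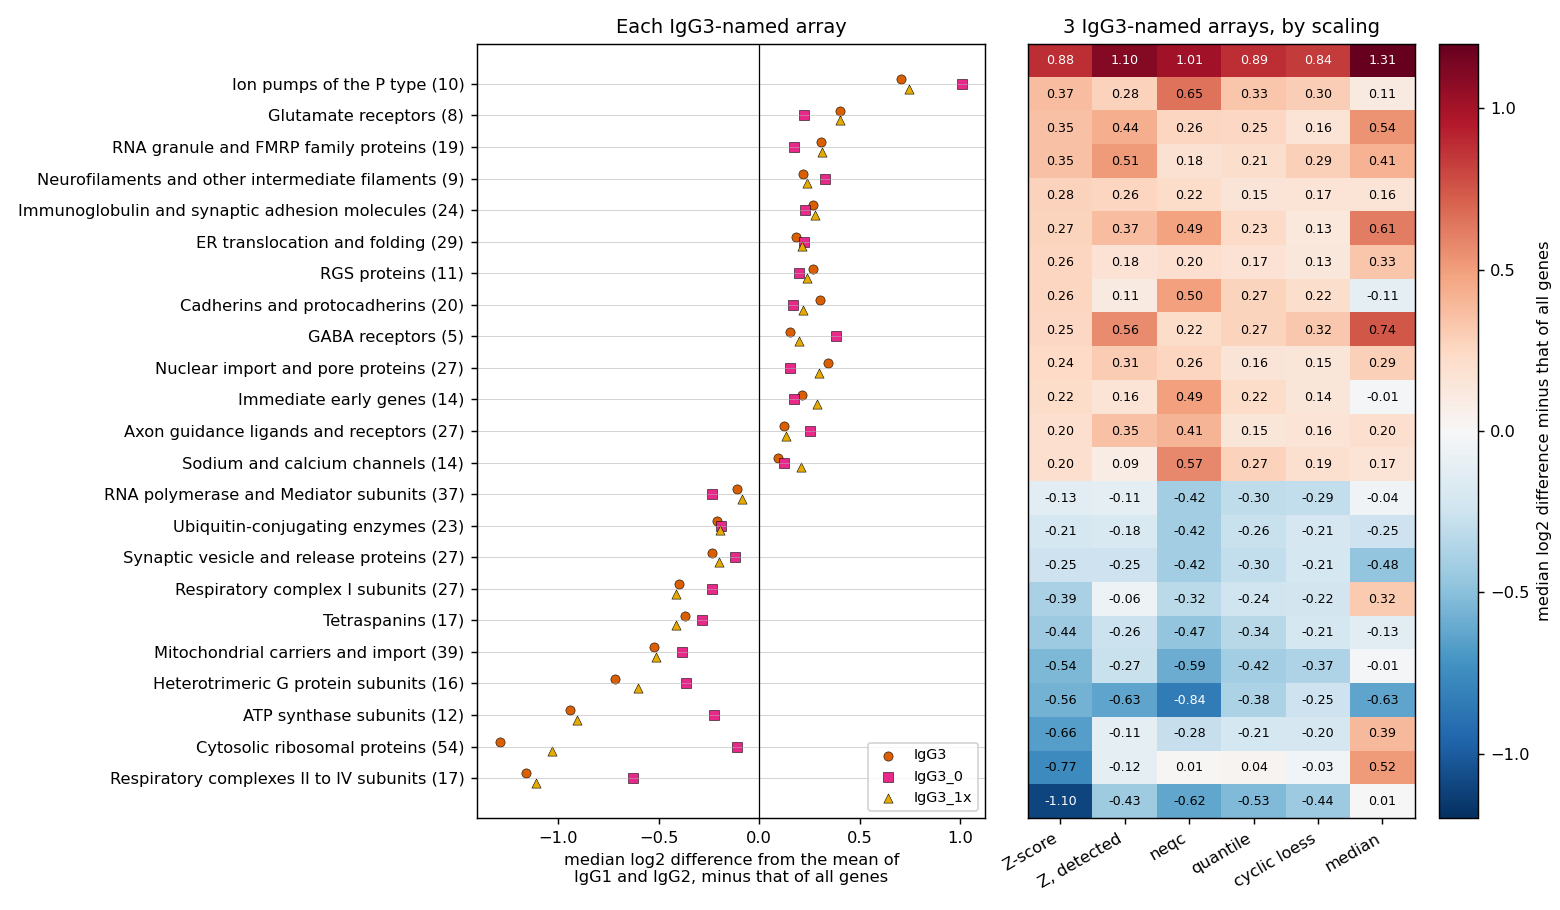
Left, for 23 gene lists with the number of genes tested in brackets, the median log2 difference of each IgG3-named array from the mean of IgG1 and IgG2, minus that of all genes; right, the same for the 3 arrays together under 6 scalings. P-type pumps lie 0.84 to 1.31 above all genes in every column, while cytosolic ribosomal proteins run from -0.77 by Z-score to 0.52 by median centring.

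Ribosomal and respiratory genes gave the widest range over scalings. Of 54 cytosolic ribosomal proteins 3 rose and 20 fell by Z-score, and their median relative to all genes was -0.77 by Z-score, 0.04 by quantiles, -0.03 by cyclic loess and 0.52 by median centring. On the single arrays it was -1.29 on IgG3 and -1.03 on IgG3_1x but -0.11 on IgG3_0, and it was -0.505 without IgG3 and -1.19 without IgG3_0. As a class they therefore had no settled direction. Within the class the differences were wide. Rps2 and Rpl13a fell, as above, and Rps12 read 6655, 2473 and 5714 on the IgG3-named arrays against 340 on IgG1 and 440 on IgG2, so that proteins of the same subunit differed by -4.63 and 1.89. Rplp0 and Rpl41, among the brightest of all probes, fell by 2.77 and 2.11 by Z-score and by 0.42 and 0.21 by quantiles, where neither was called, and both calls were lost without IgG1 and without IgG2.

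Nuclear genes of the respiratory chain behaved in a similar way. Of 17 subunits of complexes II to IV 1 rose and 11 fell, 0.43 to 1.10 below all genes in 5 of the scalings and 0.01 above them by median centring and without scaling. Cox7a2l, which joins respiratory complexes, read 401, 183 and 343 on the IgG3-named arrays against 309 on IgG1 and 406 on IgG2 (difference -1.54), Cycs (cytochrome c) fell by 1.40, and Sdha, of complex II, rose by 0.69, a call lost without IgG1 or IgG2. Of 27 complex I subunits 4 rose and 11 fell, with Ndufb8 at -1.86, and of 12 ATP synthase subunits 1 rose and 6 fell, with Atp5f1d at -1.65. Both lists lay above all genes by median centring, by 0.32 and 0.39. Mitochondrial carriers and import proteins, less bright, lay below all genes in every scaling (0.01 to 0.59), with 7 higher and 18 lower of 39. Slc25a1, which exports citrate, fell by 1.81 and Slc25a11, which exchanges 2-oxoglutarate and malate, by 1.28, whereas Vdac1, the pore of the outer membrane, rose by 1.06. Ubiquitin-conjugating enzymes counted 1 higher and 7 lower of 23, with Ube2m, which attaches NEDD8, at -1.63 after Ube2s.

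Markers of cell types were read on the same arrays to see which cells the precipitated RNA named. Of the neuronal markers 10 of 11 were detected on the IgG3-named arrays and 10 of 11 on IgG1 or IgG2, some of them close to background. Rbfox3 read 143, 132 and 129 on the IgG3-named arrays against 90.3 on IgG1 and 98.7 on IgG2. The dimmest detected probes read 130, 121 and 117 on IgG3, IgG3_0 and IgG3_1x, against 81.5 on IgG1 and 86.5 on IgG2. The list's summed intensity was 0.305% to 0.387% of the array's total on the IgG3-named arrays, against 0.160% on IgG1 and 0.157% on IgG2. Tubb3, Syt1, Snap25, Nefm and Slc17a6 rose, by 1.52, 1.40, 1.03, 0.70 and 0.74, and 0 fell. The other tested members were not called, with Stmn2 at -0.36, Map2 at -0.27, Rbfox3 at -0.16, Nefl at 0.22 and Neurod6 at 0.28. Stmn2, the brightest of the list, read 19658, 9040 and 20027 on the IgG3-named arrays against 3030 on IgG1 and 3814 on IgG2. Slc17a7, the vesicular glutamate transporter of mature cortex, did not pass the detection limit on any of the 5 arrays. Of the inhibitory list Sst (somatostatin) rose by 1.24 and no other member was called. Radial glia and progenitor markers summed to 0.196% to 0.214% on the IgG3-named arrays, against 0.252% on IgG1 and 0.242% on IgG2, and most of that sum was Fabp7 (81.8% to 84.8% on the IgG3-named arrays, against 91.3% on IgG1 and 90.9% on IgG2). Of the 6 genes on that list Fabp7 and Sox2 fell by 1.93 and 1.02 by Z-score while Vim rose. Fabp7 read 22140, 11129 and 21395 on the IgG3-named arrays against 8479 on IgG1 and 9912 on IgG2. By median centring Fabp7, Sox2 and Vim lay at -0.24, -1.18 and 1.71 relative to all genes. Hes5, also called lower, was above background on IgG1 and IgG2 and on no IgG3-named array, so its direction was set by that pattern. Among astrocyte markers Gfap rose by 0.50 and S100b fell by 1.01. Oligodendrocyte lineage markers summed to 0.0789% to 0.0901% on the IgG3-named arrays, against 0.107% on IgG1 and 0.117% on IgG2, most of it Olig1 (80.7% to 87.8% on the IgG3-named arrays, against 80.2% on IgG1 and 83.0% on IgG2), and Olig1, Pdgfra and Cnp fell by 1.47, 0.67 and 0.48. Of 7 microglial markers 1 (Aif1) was above background in either group, and it fell by 0.37 by Z-score. It lay close to background on the IgG3-named arrays (139.5, 114 and 120, against 89.1 on IgG1 and 112 on IgG2). Of 5 red blood cell markers Hba-a1 was above background on every IgG3-named array and on neither IgG1 nor IgG2. Without IgG1, the calls of Slc17a6, Gfap, Fabp7, Cnp and Aif1 were lost, and without IgG2 those of Slc17a6, Gfap, Pdgfra, Cnp and Aif1. Cnp and Aif1 were also lost without IgG3_1x and Aif1 without IgG3. The part of cell composition in the gene classes was not tested.

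Promoter base composition, which no step of the choice used, did not follow the difference. RefSeq promoters (GRCr8) were at hand for 83.8% of the genes tested. In 5 bins from low to high GC content the median difference was 0.15, 0.12, 0.15, 0.19 and 0.16, and the rank correlation across the 5304 genes, which are not independent replicates, was 0.021.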

How the data were processed

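Deposited probe intensities, with a detection p-value for each, came from rat Ref-12 BeadChips, which the authors scanned and extracted with Illumina software (BeadStudio 1.5 in the design text, GenomeStudio 2011.1 in the submitters' processing notes). The deposited score per probe is the authors' Z-score, which equalled the Z-score of the log intensity here. Depth does not apply to arrays; their number (3 and 2) limits precision, and an exact permutation test of 3 against 2 arrays cannot go below p = 0.1. Log2 intensities were turned into Z-scores per array, set on the mean (7.11) and SD (1.28) of the 5 arrays. Probes with detection p under 0.02 on at least 2 of the 5 arrays entered the fit (limma 3.58.1, R 4.3.3; two-sided moderated test with Benjamini-Hochberg adjustment). The step was tested on simulated data. Of 22523 probes, 13793 carried 1 gene symbol in the platform annotation and 8730 none, and 0 carried several; 2340 tested probes were counted and not named. A gene is represented by its brightest tested probe. Named genes were, per direction, the 12 with the largest difference that were detected in both groups, did not overlap and were called after quantile normalization too, the 6 with the largest bound, and up to 4 members of a list plus 1 in the other direction. The members and lists were chosen with earlier results of these data known. Columns of the TRF2-S arrays were not used. Protein length and membrane segments, planned as features, were not analysed here. Alternatives were other scalings, filters, tests and array sets.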

Additional observations from a re-analysis of the deposited data

How the results depend on the processing

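Counts of higher and lower probes moved most with the scaling. Relative to 2533 higher and 1503 lower probes, median centring gave 0 and 28, no normalization 5506 and 77, and the methods' one-way ANOVA 972 and 881 after Benjamini-Hochberg adjustment (2360 and 1545 at the methods' threshold). Quantile normalization gave 2348 lower probes, neqc 2255, Z-scores over probes detected on all 5 arrays 2463, cyclic loess (chosen after seeing the data) 2634 and probes detected on all 5 arrays 835. With IgG3 and IgG3_1x averaged, also chosen after seeing the data, 1618 were higher. Leaving out each array gave 977 to 4102 higher and 590 to 2072 lower probes. With the IgG3-named arrays as a random block, 3128 probes were higher and 1819 lower. That block was the compared group itself and its estimated correlation was -0.26, so this fit cannot account for RNA shared among these arrays. The authors' Z-scores gave the same counts. The cause of these shifts was not tested.

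The median of all genes was 0.15 by Z-score, 0.07 by quantiles, 0.65 by median centring, 1.16 without normalization, 0.13 by neqc, -0.13 by Z-scores over detected probes and -0.01 by cyclic loess. Relative to it, median centring and no normalization, alike once that median is taken off, turned the sign of cadherins (-0.11), immediate early genes (-0.014), cytosolic ribosomal proteins (0.52), complex I (0.32), complexes II to IV (0.01) and ATP synthase (0.39). Ribosomal proteins also turned by quantiles (0.035) and neqc (0.012). Without a filter GABA receptors (-0.011), sodium and calcium channels (-0.0097) and vesicle proteins (0.0049) turned. Without a filter P-type pumps lay at 0.04 instead of 0.88 and G protein subunits at -0.03 instead of -0.56. Over probes detected on all 5 arrays, axon guidance genes lay at 0.52, cadherins at 0.42, GABA receptors at 0.59 and polymerase and Mediator subunits at -0.21. Among single genes Gnao1 (0.45), Tspan3 (0.22), Serp2 (0.22), Uqcrh (0.0065), Atp5po (0.19), Slc25a4 (0.022), Ube2e3 (0.23) and Ube2d1 (0.25) turned by median centring and without normalization.

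Of 132 genes called and named by the rule, 91 kept their calls in all 5 fits that left out an array. Without IgG1 36 calls were lost, 28 without IgG2, 6 without IgG3, 8 without IgG3_1x and 0 without IgG3_0. Leaving out IgG3_0 kept only IgG3 and IgG3_1x, the closest pair, on that side. These fits therefore cannot show that calls hold over separate RNA among the IgG3-named arrays. No paired analysis was possible because the IgG3-named arrays and IgG1 and IgG2 share no replicate number. The planned protein features were not run. Arrays give no counts, and probes near background hold only bounds.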

Other observations

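Some genes had more than 1 tested probe, which gives a check that the choice of the brightest probe leaves out. Of 106 such genes, 11 had every probe called higher and 10 every probe called lower. In 10 genes probes were called in opposite directions. The widest gap was in Ctnna2 (alpha-N-catenin, which ties cadherins to actin in neurons), with probes at 1.58 and -0.41, followed by Higd2a (an assembly factor of the respiratory chain), with probes at 0.49 and -1.31. Probes of Aldoa, the glycolytic aldolase, lay at 0.42 and -0.62. Which transcript forms these probes match was not analysed here.

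Some lists outside those described above are given by their counts. Of 41 translation initiation and elongation factors 17 were higher and 5 lower, and of 14 enzymes of cholesterol synthesis 6 were higher and 1 lower. Both lists lay above all genes in every scaling, by 0.03 to 0.47 and by 0.06 to 0.53. Their median brightness (9.24 and 9.17) fell in the bin where 48.1% of genes were called higher and 7.98% lower. That bin itself lay 0.25 above all genes by Z-score. Of 95 zinc finger proteins 25 were higher and 16 lower, beside 29.8% and 16.2% of all genes.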
